A study of Mus musculus with 10 samples.

Results

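Versican and 7 small leucine-rich proteoglycans were followed in 10 subcutaneous melanomas of the mouse. The 8 genes Vcan, Dcn, Bgn, Lum, Fmod, Ogn, Aspn and Prelp were chosen by symbol and were all found among the 29890 genes of the expression table. Bulk messenger RNA was sequenced from 5 tumors grown from B2905-M4 cells, a mouse melanoma line, that overexpress Adamts7, which encodes a secreted protease cutting matrix proteins, and from 5 tumors grown from the same line carrying the vector. Both groups grew from 3000000 cells placed under the skin of female C57BL/6J mice aged 7 to 8 weeks, and no tumor received immunotherapy. By the design text, Adamts7 tumors grew faster: 2 of them were taken on day 35, 3 Adamts7 and 3 vector tumors on day 45, and the last 2 vector tumors on day 50. On days 35 and 50 day and group cannot be told apart. The labels tie no day to a tumor, name no promoter for the overexpression and do not say whether the modified cells were a clone or a pool.

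Proteoglycans are core proteins that carry sulfated sugar chains. Versican is a large chondroitin sulfate proteoglycan that binds hyaluronan, loosens the matrix around cells and is cut by several ADAMTS proteases. The small leucine-rich proteoglycans bind collagen fibrils, space them and hold growth factors such as TGF-beta near cells, and in tumors they are made mostly by fibroblasts. RNA levels say nothing of how much core protein was made or cut.

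Values are in TPM, a transcript abundance scaled for transcript length within each library, which allows levels to be compared between genes but keeps no read depth, so that no counting error can be given. Adamts7 itself had 88.5, 96.0, 78.2, 74.8 and 18.2 TPM in Adamts7 tumors 1 to 5, against 6.49, 6.98, 28.3, 8.57 and 27.6 TPM in vector tumors 1 to 5. The tumor labelled Adamts7 5 thus lay above vector tumors 1, 2 and 4 but below vector tumors 3 and 5. Vector tumors 3 and 5 stood apart from the other vector tumors. Their summed TPM of 12 melanocyte markers was 325 and 2061, against 8792 to 17638 in vector tumors 1, 2 and 4, while their sum of 11 T cell markers was 459 and 348, against 53.6 to 73.2. The melanocyte sum lay at 13034 to 24407 and the T cell sum at 21.6 to 54.6 in all Adamts7 tumors. The part of these sums in the results was not tested. In such bulk samples, fewer cells of a type and less RNA per cell cannot be told apart.

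No member of the family differed between the groups past the threshold. The 15276 genes that averaged 1 TPM or more, all 8 members among them, were tested with limma on log2(TPM + 1), and a call required an adjusted p below 0.05. Of the 8 members 0 were called, where 0.223% of all genes tested were (0.196% lower in Adamts7 tumors). The overexpressed gene Adamts7 was itself not called in this fit, with a log2 fold change of 2.21 (SE 0.54, limma adjusted p = 0.104). In the authors' deposited table its adjusted p was 0.000817. The lack of calls among the members therefore does not show that they were unchanged. The groups overlapped in every member, where 4.89% of all genes tested did not overlap (3.78% with the Adamts7 tumors lower). The members called also numbered 0 with tumor quality weights (7.98% of all genes), without the tumor labelled Adamts7 5 (4.29%) and without that tumor and vector tumors 3 and 5 (5.24%). The unadjusted p was below 0.05 for 2 members, Fmod and Ogn, both lower in Adamts7 tumors, against 20.2% of all genes tested (15.3% lower). This count was 0 without Adamts7 tumor 3 or without vector tumor 5, and 5 without vector tumor 1. No share over all genes is at hand for these fits, so their counts cannot be set against a background. The log2 fold change of Adamts7 over vector tumors was below 0 for 6 members and above 0 for Vcan and Prelp, with a median of -0.82, against a median of -0.10 over all genes tested. In the authors' deposited table, 1 of the 8, Fmod, passed an adjusted p of 0.05, where 7.96% of the 18796 genes with such a value did.

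**Figure D1:**
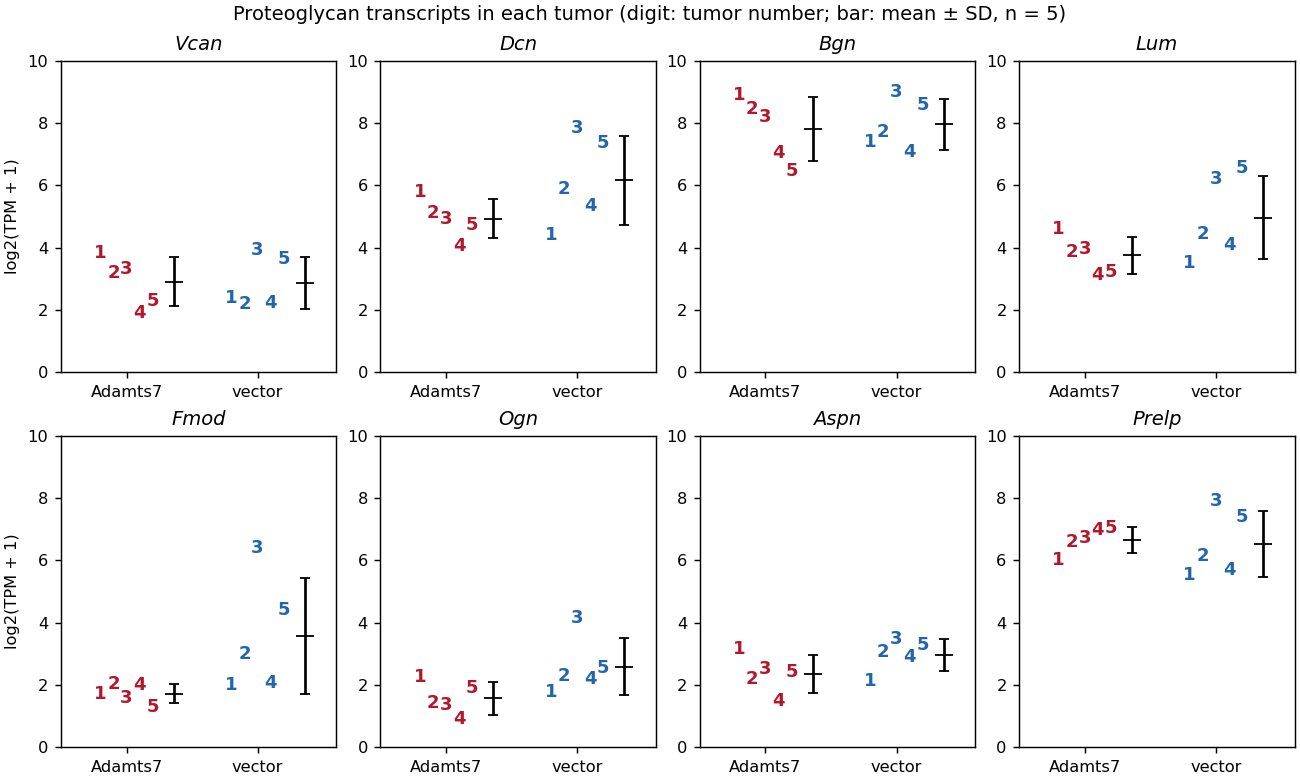
Level of each of the 8 genes in log2(TPM + 1) (y axis) in each tumor, with Adamts7 tumors in red and vector tumors in blue; the digit is the tumor number and the bar the mean ± SD (n = 5). Vector tumors 3 and 5 were the highest vector tumors in every gene, and among the Adamts7 tumors Prelp was highest in tumors 4 and 5, where Bgn and Vcan were lowest.

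Decorin and biglycan, the closest relatives in the family, differed in how their levels fell between the groups. Biglycan, a collagen-binding proteoglycan that can also signal through Toll-like receptors, was the most abundant member in 9 of 10 tumors, Prelp being above it in the tumor labelled Adamts7 5. Bgn had 481, 350.1, 291, 130.3 and 87.2 TPM in Adamts7 tumors 1 to 5, against 167, 209.7, 518, 135 and 386 TPM in vector tumors 1 to 5. Both groups held high and low tumors, and they overlapped almost fully. The log2 fold change of Bgn was -0.15 with a 95% interval of -1.28 to 0.98 (limma, adjusted p = 0.880), and it was 0.41 (SE 0.52) without vector tumors 3 and 5.

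Decorin, which binds collagen and TGF-beta and restrains growth factor receptors, was low in all Adamts7 tumors and very variable in vector tumors. Dcn had 54.5, 33.7, 29.6, 15.6 and 25.8 TPM in Adamts7 tumors 1 to 5, against 20.2, 57.5, 229, 39.7 and 163 TPM in vector tumors 1 to 5. Every Adamts7 tumor lay below the vector median of 57.5 TPM. Vector tumor 1 lay among the lowest Adamts7 tumors, and vector tumor 4 lay below Adamts7 tumor 1. The log2 fold change was -1.24 (SE 0.61, limma adjusted p = 0.278), and it was -0.28 (SE 0.42) without vector tumors 3 and 5. Asporin, a relative that carries a run of aspartate residues and also binds collagen, had 7.84, 3.59, 4.68, 1.77 and 4.32 TPM in Adamts7 tumors, against 3.36, 7.32, 10.2, 6.36 and 8.74 TPM in vector tumors. Its log2 fold change was -0.62 (SE 0.33, limma adjusted p = 0.304), and Adamts7 tumor 1 stood above 3 vector tumors. Without vector tumors 3 and 5 the value for Aspn was -0.34 (SE 0.37).

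Lumican and fibromodulin are keratan sulfate proteoglycans that bind the same region of collagen. Lum had 23.3, 13.4, 14.5, 7.73 and 8.32 TPM in Adamts7 tumors 1 to 5, against 10.4, 20.9, 72.8, 16.0 and 92.8 TPM in vector tumors 1 to 5. Vector tumors 3 and 5 stood above every other tumor, and the remaining vector tumors lay among the Adamts7 tumors. Lum had a log2 fold change of -1.21 (SE 0.58, limma adjusted p = 0.266) with all tumors and -0.27 (SE 0.36) without vector tumors 3 and 5.

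Fibromodulin had the most negative log2 fold change of the family. Fmod had 2.23, 3.08, 2.00, 3.00 and 1.43 TPM in Adamts7 tumors 1 to 5, against 2.94, 6.89, 82.6, 3.16 and 20.2 TPM in vector tumors 1 to 5. All Adamts7 tumors lay close together, and 4 of 5 vector tumors lay above all of them. Its log2 fold change was -1.84 with a 95% interval of -3.47 to -0.22 (limma, adjusted p = 0.208), and an exact two-sided permutation test of Fmod alone gave p = 0.0238. The authors' deposited table gives Fmod a log2 fold change of -3.15 (SE 0.76) and an adjusted p of 0.00212, where 5.48% of genes were called lower. It gives log2 fold changes of -1.57 for Dcn (adjusted p of 0.0628), -1.55 for Lum (0.0619) and -1.45 for Ogn (0.0713), none of which passed in the authors' deposited table. Without vector tumors 3 and 5 the log2 fold change was -0.62 (SE 0.29, limma adjusted p = 0.422), and over the 100 ways to choose 3 Adamts7 and 3 vector tumors as those of day 45 it lay between -3.07 and -0.43.

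Osteoglycin, a small member first described in bone and also found in the wall of vessels and in skin, was among the lowest of the 8. Ogn had 3.75, 1.67, 1.55, 0.870 and 2.71 TPM in Adamts7 tumors, against 2.44, 3.82, 16.7, 3.56 and 4.77 TPM in vector tumors. All Adamts7 tumors lay below the vector median, and vector tumor 3 stood far above the rest. Ogn had a log2 fold change of -1.02 (SE 0.43, limma adjusted p = 0.222), and an exact two-sided permutation test of Ogn alone gave p = 0.0476. It was -0.52 (SE 0.31) without vector tumors 3 and 5. The other 6 members had exact p-values between 0.119 for Lum and 0.976 for Vcan in the same permutation test, and no adjustment over the 8 was made.

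Prelp, a basic heparin-binding member that links basement membranes to collagen, was the only small proteoglycan of the family above 0 in log2 fold change with all tumors. It had 63.0, 95.5, 104, 125 and 132 TPM in Adamts7 tumors 1 to 5, against 45.0, 70.3, 239, 51.0 and 169 TPM in vector tumors 1 to 5. With all tumors the log2 fold change was 0.13 with a 95% interval of -0.86 to 1.12 (limma, adjusted p = 0.884). Of the Adamts7 tumors 4 lay above vector tumors 1, 2 and 4 and all 5 below vector tumors 3 and 5. Without vector tumors 3 and 5 the log2 fold change of Prelp was 0.87 with a 95% interval of 0.31 to 1.44 and an unadjusted p of 0.00679, which did not pass over all genes (limma, adjusted p = 0.216). Bgn was above 0 in the same fit as well, at 0.41 (SE 0.52). In that fit 0 of the 8 members were called, where 0.183% of all genes were, and those tumors were left out because their marker sums stood apart. Vector tumors 3 and 5 also had the highest Prelp of all tumors, so leaving them out could only raise its fold change. No share over all genes is at hand for the unadjusted p of that fit.

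Versican was expressed well below biglycan in every tumor. Vcan had 13.3, 8.05, 8.93, 2.75 and 3.81 TPM in Adamts7 tumors 1 to 5, against 4.24, 3.56, 14.2, 3.69 and 11.4 TPM in vector tumors 1 to 5. Adamts7 tumors 1 to 3 were high and 4 and 5 low, while vector tumors 3 and 5 were high and the others low. Its log2 fold change was 0.03 with a 95% interval of -0.99 to 1.04 (limma, adjusted p = 0.978). It was 0.63 (SE 0.41) without vector tumors 3 and 5, and over the 100 such choices for day 45 it lay between -0.87 and 1.17. Over the same choices Ogn lay between -1.76 and -0.23, Lum between -2.34 and 0.12, Dcn between -2.45 and 0.08 and Prelp between -0.72 and 1.12. The table does not separate the splice forms of versican.

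**Figure D2:**
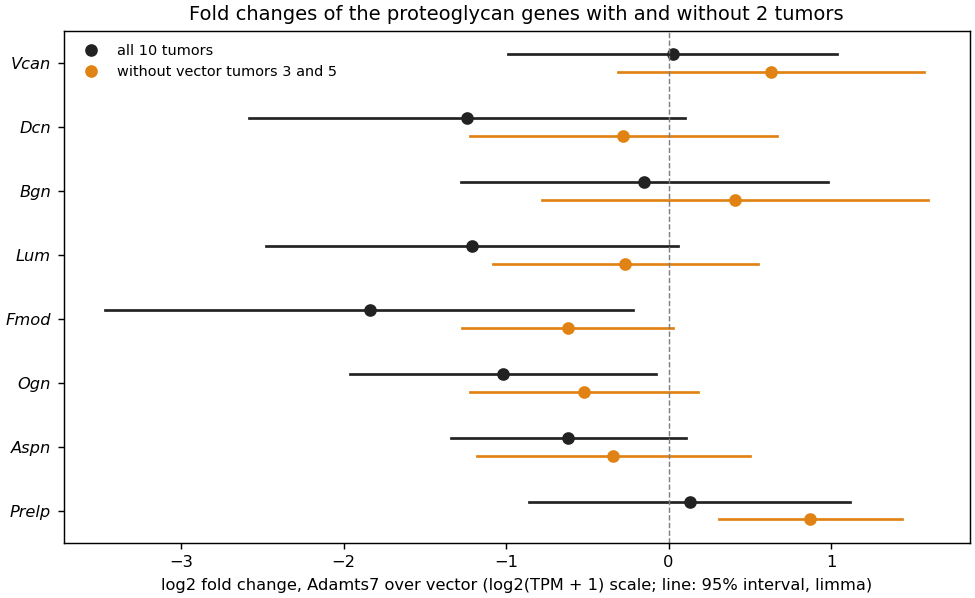
Log2 fold change of Adamts7 over vector tumors (x axis) for each gene, with its 95% interval from limma, for all 10 tumors (black) and without vector tumors 3 and 5 (orange). Without those tumors Dcn, Lum, Fmod and Ogn lie closer to 0, and Prelp lies at 0.87.

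Promoter windows are shown for Fmod and Prelp, neighbours with unlike values, and for Vcan and Bgn, the pair of members with a window whose Pearson correlation over the 10 tumors was highest. Fmod and Prelp lie on chromosome 1 with no other protein-coding gene between them. RefSeq windows of assembly GRCm38.p6, from 250 bases before to 50 after the start of the gene, were found for 6 of the 8 members and are given on the gene's own strand; the submitters' processing notes name mm39 for the expression table. Capitals mark matches, on either strand, to TATAAA (the TATA box), to CCAAT (the CCAAT box), to GGGCGG (the GC box), to TGANTCA (an AP-1 motif) or to GGAATG (a TEAD motif).
Fmod, chr1:134037004-134037303, plus strand: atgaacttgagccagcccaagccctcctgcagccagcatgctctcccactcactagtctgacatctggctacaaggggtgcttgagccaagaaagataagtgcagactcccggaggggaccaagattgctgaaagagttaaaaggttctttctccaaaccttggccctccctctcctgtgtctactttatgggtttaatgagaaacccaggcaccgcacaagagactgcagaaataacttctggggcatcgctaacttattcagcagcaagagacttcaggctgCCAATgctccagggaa
Prelp, chr1:133921352-133921651, minus strand: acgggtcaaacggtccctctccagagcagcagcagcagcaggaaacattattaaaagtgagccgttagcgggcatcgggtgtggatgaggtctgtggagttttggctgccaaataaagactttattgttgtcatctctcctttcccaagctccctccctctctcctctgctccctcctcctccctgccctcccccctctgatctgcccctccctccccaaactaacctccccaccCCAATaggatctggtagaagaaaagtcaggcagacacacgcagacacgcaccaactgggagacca
Vcan, chr13:89742463-89742762, minus strand: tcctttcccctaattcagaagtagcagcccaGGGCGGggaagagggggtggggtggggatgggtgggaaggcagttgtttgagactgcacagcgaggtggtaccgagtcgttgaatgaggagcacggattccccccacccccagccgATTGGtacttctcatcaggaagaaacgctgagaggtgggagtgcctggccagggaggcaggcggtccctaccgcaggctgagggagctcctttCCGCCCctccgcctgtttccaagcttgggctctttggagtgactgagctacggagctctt
Bgn, chrX:73483351-73483650, plus strand: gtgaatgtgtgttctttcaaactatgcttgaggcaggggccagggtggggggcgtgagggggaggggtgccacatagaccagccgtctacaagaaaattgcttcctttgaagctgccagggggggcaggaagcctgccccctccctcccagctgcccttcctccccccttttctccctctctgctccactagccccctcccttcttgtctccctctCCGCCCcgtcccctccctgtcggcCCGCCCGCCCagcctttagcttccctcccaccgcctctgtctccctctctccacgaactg
The GC box was found 3 times in the Bgn window, with the last pair overlapping, and 2 times in the Vcan window, and 35.7% of 32851 windows of this length hold it. CCAAT was found 1 time each in the Fmod, Prelp and Vcan windows and in 37.4% of all windows. The TATA box, present in 13.6% of all windows, the AP-1 motif, in 7.81%, and the TEAD motif, in 14.7%, had no match in these 4. These letters describe the windows and no binding was measured.

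The summed level and the make-up of the family were compared next. The 8 genes summed to 649, 509, 457, 287 and 265 TPM in Adamts7 tumors 1 to 5, against 256, 380, 1183, 259 and 856 TPM in vector tumors 1 to 5. The 7 small leucine-rich members alone averaged 426 ± 156 TPM in Adamts7 tumors and 579 ± 409.8 TPM in vector tumors (SD, n = 5 each), and 294 ± 71.0 TPM in vector tumors 1, 2 and 4 (SD, n = 3). The direction of the difference in this sum therefore depended on vector tumors 3 and 5.

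Decorin made up 7.33 ± 1.71% of the family's summed TPM in Adamts7 tumors and 15.4 ± 4.64% in vector tumors (SD, n = 5 each). Its share was 8.41%, 6.62%, 6.47%, 5.42% and 9.71% in Adamts7 tumors 1 to 5, against 7.88%, 15.1%, 19.4%, 15.3% and 19.1% in vector tumors 1 to 5. The groups overlapped through vector tumor 1. Lumican made up 2.64% to 3.59% of the sum in Adamts7 tumors, against 4.06% to 10.8% in vector tumors, and fibromodulin 0.344% to 1.04% in Adamts7 tumors, against 1.15% to 6.98% in vector tumors. These 2 of 8 shares did not overlap between the groups, where 3.61% of all genes tested did not overlap when set against the same sum. Shares within a family move against each other, so a high Bgn or Prelp lowers the rest. For each 100 TPM of Bgn there were 11.3, 9.63, 10.2, 12.0 and 29.5 TPM of Dcn in Adamts7 tumors 1 to 5, against 12.1, 27.4, 44.3, 29.3 and 42.3 TPM in vector tumors 1 to 5. The tumor labelled Adamts7 5 and vector tumor 1 each lay with the other group in this ratio.

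Prelp took 9.71%, 18.8%, 22.8%, 43.6% and 49.6% of the sum in Adamts7 tumors 1 to 5, against 17.6% to 20.2% in the vector tumors. Its share was thus nearly constant among vector tumors, whose summed level differed widely, and it varied widely among Adamts7 tumors. Biglycan took 74.1%, 68.8%, 63.8%, 45.3% and 32.9% in Adamts7 tumors 1 to 5, against 43.8% to 65.4% in vector tumors.

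**Figure D3:**
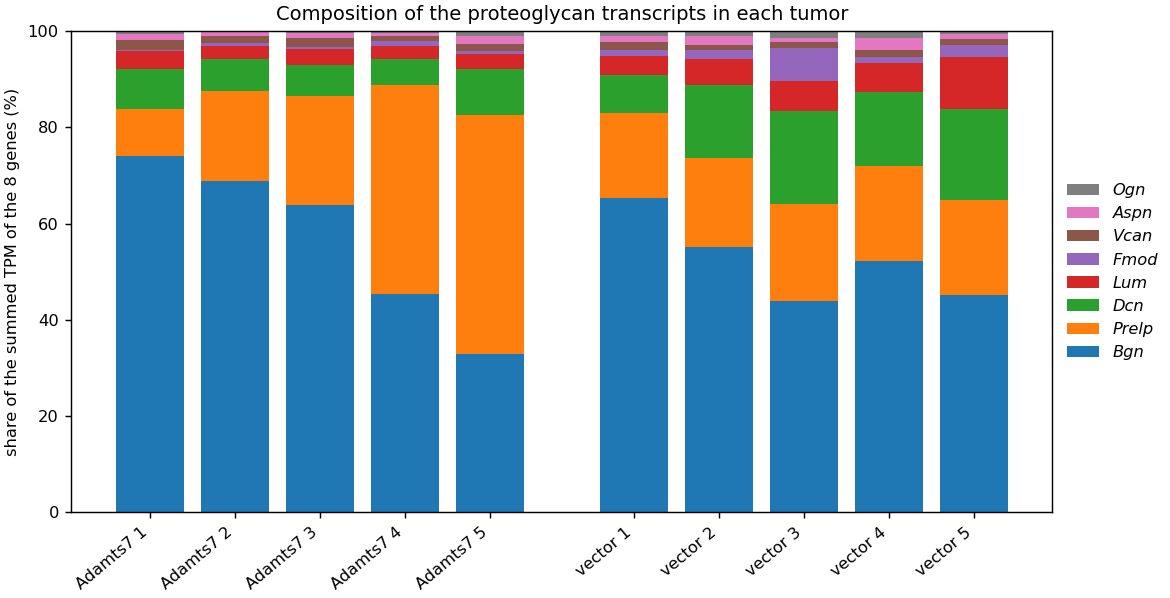
Share of each gene in the summed TPM of the 8 genes (y axis, %) in each tumor, Adamts7 tumors on the left and vector tumors on the right. Prelp fills 49.6% of the bar in the tumor labelled Adamts7 5 and 9.71% in Adamts7 tumor 1, and Dcn is widest in vector tumors 3 and 5.

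How the members followed each other over tumors is a description only, since all points come from the same 10 libraries. With all 10 tumors the 28 pairs had Pearson correlations of log2(TPM + 1) between 0.21 and 0.97, with a median of 0.67. Dcn and Lum, neighbours on chromosome 10 with no protein-coding gene between them, had the highest of these (r = 0.97, and 0.94 over the 8 tumors without vector tumors 3 and 5). Vcan and Bgn followed each other as well (r = 0.92, and 0.88 over the 8 tumors). Ogn and Aspn, which lie in a run of 4 such genes on chromosome 13 with Ecm2 and Omd, had r = 0.84, and 0.89 over the 8 tumors. Without vector tumors 3 and 5 the median over pairs was 0.39, and Prelp was negatively correlated with every other member, with r between -0.62 for Ogn and -0.07 for Vcan. By Spearman's rho over the 10 tumors, Dcn and Lum, Dcn and Aspn, and Lum and Aspn were each at 0.95, Ogn and Aspn and Dcn and Ogn each at 0.90, and Vcan and Bgn at 0.87. Dcn and Aspn also had r = 0.94 over the 8 tumors. Fmod and its neighbour Prelp had r = 0.64 over 10 tumors and -0.37 over the 8.

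**Figure D4:**
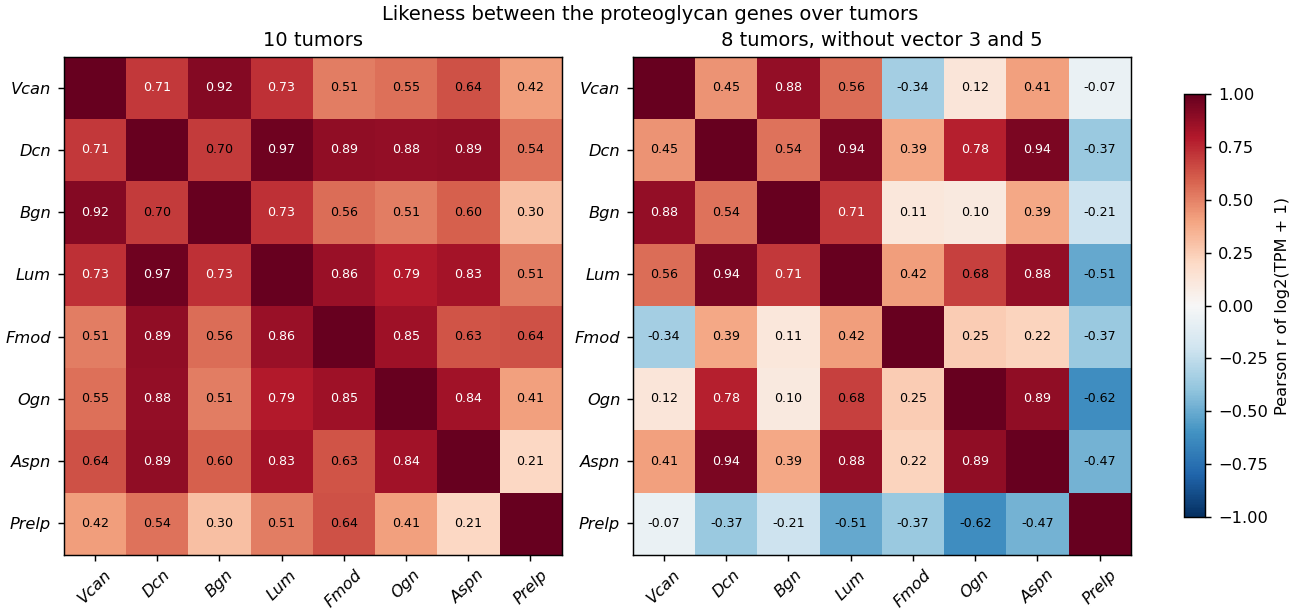
Pearson correlation of log2(TPM + 1) between each pair of genes over all 10 tumors (left) and over the 8 tumors without vector tumors 3 and 5 (right), from blue at -1 to red at 1. The Prelp row is positive on the left and negative on the right.

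Fibroblast markers tracked some members and not others. The 13 markers, which hold collagen genes and none of the 8 members, summed to 1974, 1143, 964, 405 and 381 TPM in Adamts7 tumors 1 to 5, against 657, 929, 1393, 467 and 1473 TPM in vector tumors 1 to 5, and Tcf21 was below 1 TPM in every tumor. Bgn followed this sum closely (r = 0.96 on the log2 scale over 10 tumors, and 0.97 over the 8), Vcan nearly as closely (0.89 and 0.87), Dcn and Lum less (0.68 and 0.65, 0.71 and 0.78), Fmod weakly (0.46 and 0.14) and Prelp least (0.18 and -0.27). Per 1000 TPM of these markers there were 229 to 322 TPM of Bgn in Adamts7 tumors and 226 to 372 TPM in vector tumors. Dcn was at 27.6, 29.5, 30.7, 38.5 and 67.6 TPM per 1000 TPM of the markers in Adamts7 tumors 1 to 5, against 30.7, 61.8, 165, 85.0 and 111 TPM in vector tumors 1 to 5. Relative to the same markers Prelp was highest in Adamts7 tumors 4 and 5, at 309.7 and 345 TPM per 1000, against 31.9 to 108 in Adamts7 tumors 1 to 3 and 68.6 to 172 in vector tumors.

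**Figure D5:**
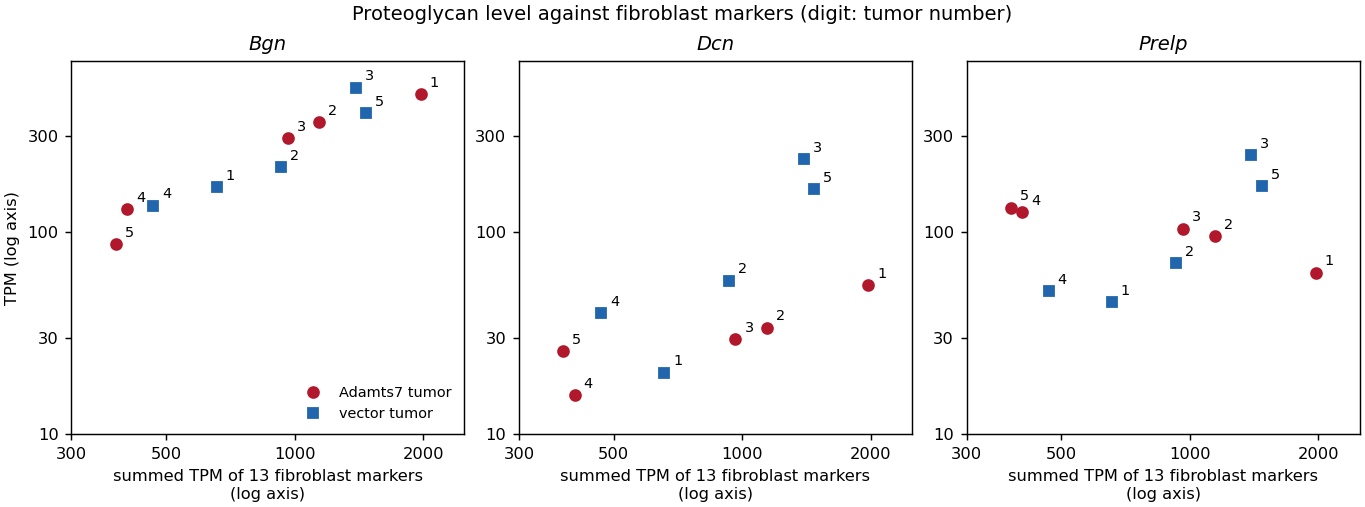
TPM of Bgn, Dcn and Prelp (y axis, log) against the summed TPM of 13 fibroblast markers (x axis, log) in each tumor, Adamts7 tumors as red circles and vector tumors as blue squares, with the tumor number. Bgn lies along a line, Dcn lies lower in the Adamts7 tumors at a given marker sum than in most vector tumors, and Prelp is at 125 and 132 TPM in the 2 tumors with the lowest sums.

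Other tissues that make these proteoglycans were looked for through their markers, and their part in the values above was not tested. Cartilage markers, 7 in the table with Matn1 and Comp below 1 TPM in every tumor, summed to 2.18 to 5.44 TPM in Adamts7 tumors 1 to 4. They summed to 21.6 TPM in the tumor labelled Adamts7 5, 35.3 and 47.5 TPM in vector tumors 3 and 5 and 3.33 to 7.82 TPM in the others. Most of the high sums came from Hapln1 (15.4, 21.9 and 9.42 TPM in these 3 tumors) and, in vector tumors 3 and 5, Acan (8.08 and 32.7 TPM). The cartilage collagen gene Col2a1 did not follow them, at 0.05 to 3.23 TPM in Adamts7 tumors and 0.61 to 2.65 TPM in vector tumors. Tendon markers, of which Kera and Chodl were below 1 TPM in every tumor, summed to 15.6 to 39.5 TPM in Adamts7 tumors and 18.1 to 27.9 TPM in vector tumors. Skeletal muscle markers were at 491 TPM in vector tumor 4 and at most 13.8 TPM in any other tumor. Adipocyte markers summed to 10.9 to 33.9 TPM in Adamts7 tumors and 11.5 to 172 TPM in vector tumors, pericyte and smooth muscle markers to 52.4 to 110 TPM in Adamts7 tumors and 57.6 to 124 TPM in vector tumors. Endothelial markers summed to 47.2 to 108 TPM in Adamts7 tumors and 57.6 to 126 TPM in vector tumors, and macrophage markers to 423 to 2006 TPM in Adamts7 tumors and 806 to 3173 TPM in vector tumors. Keratinocyte markers reached at most 5.16 TPM in sum, with Krt5, Krt14 and Krt15 below 1 TPM in every tumor.

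The genes whose levels were most like those of each member over the 10 tumors differed from member to member. Bgn was closest to the collagen VI genes Col6a2 (r = 0.993) and Col6a1 (r = 0.989), and these values were 1.00 and 0.99 over the 8 tumors without vector tumors 3 and 5. Vcan was closest to Rarres2, which encodes the chemoattractant chemerin (r = 0.975), and to Fst, which encodes the activin inhibitor follistatin (r = 0.966). Dcn was closest to Ripor2 and Il15ra, the interleukin-15 receptor chain (r = 0.989 and 0.988), and Lum to P2ry14, a receptor for nucleotide sugars, and Epsti1 (r = 0.992 each). Fmod was closest to Vsig1, an immunoglobulin family gene (r = 0.988, but 0.88 over the 8 tumors), Ogn to Klrb1c, a natural killer cell receptor (r = 0.954), Aspn to Slc27a3 (r = 0.974) and Prelp to Zfp983 (r = 0.932). Each of these is among the highest of 15276 values computed over 10 points that share their libraries.

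Other small leucine-rich proteoglycans summed to 17.6 to 23.4 TPM in Adamts7 tumors and 24.7 to 62.5 TPM in vector tumors. Of the 11 listed, 6 were tested and 0 were called by limma, with a median log2 fold change of -0.52 (-0.20 without vector tumors 3 and 5), and Kera, Epyc and Nyx were below 1 TPM in every tumor. Chadl, a chondroadherin-like collagen-binding gene, was at 6.73 ± 1.79 TPM in Adamts7 tumors and 20.1 ± 13.3 TPM in vector tumors (SD, n = 5 each), with a log2 fold change of -1.24 (SE 0.40, limma adjusted p = 0.152) that was -0.59 (SE 0.26) without vector tumors 3 and 5. In the authors' deposited table Chadl was called lower (adjusted p of 0.0206). Ecm2, the neighbour of Aspn, was at 2.42 ± 0.326 TPM in Adamts7 tumors and 4.49 ± 1.58 TPM in vector tumors (SD, n = 5 each), with a log2 fold change of -0.63 (SE 0.22, limma adjusted p = 0.174) that was -0.40 (SE 0.22) without those tumors. Among other hyalectans, the relatives of versican, Acan, which encodes the cartilage proteoglycan aggrecan, was at 0.04 to 0.09 TPM in Adamts7 tumors, against 0.41, 1.12, 8.08, 0.21 and 32.7 TPM in vector tumors 1 to 5. The groups did not overlap in Acan, 1 of 3 tested genes of that list, where 4.89% of all genes tested did not overlap. The Acan log2 fold change of -1.93 (SE 0.81) was not called (limma, adjusted p = 0.224). In the authors' deposited table its adjusted p was 3.7e-06. Acan was at -0.52 (SE 0.22) on the log2 scale without vector tumors 3 and 5. Of 3 tested genes of that list 0 were called by limma, and Hapln4, a link protein gene, had a log2 fold change of -0.75 (SE 0.27).

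Enzymes that build the sugar chains gave 0 calls by limma. Of 7 genes of the common linker 0 were called and the median was -0.03. The groups did not overlap in 2 of these 7, Xylt1 and B4galt7, where 4.89% of all genes tested did not overlap (3.78% with the Adamts7 tumors lower). Xylt1 is a xylosyltransferase that adds the first sugar of this linker. Xylt1 had 5.89, 5.10, 4.67, 4.38 and 2.60 TPM in Adamts7 tumors 1 to 5, against 13.5, 8.99, 18.5, 20.4 and 10.2 TPM in vector tumors 1 to 5. Every Adamts7 tumor was thus lower than every vector tumor, and the log2 fold change of -1.44 (SE 0.25, limma adjusted p = 0.0606) was -1.43 (SE 0.29) without vector tumors 3 and 5. For Xylt1 the authors' deposited table gives -1.55 (SE 0.29) with an adjusted p of 1.92e-05. Its paralog Xylt2 was at 17.2 ± 2.24 TPM in Adamts7 tumors and 16.7 ± 2.73 TPM in vector tumors (SD, n = 5 each). Pxylp1, which removes a phosphate from the linker, had a log2 fold change of 0.39 (SE 0.14), and it was called higher in the authors' deposited table (adjusted p of 0.00901). B4galt7, which adds the next sugar, also did not overlap between groups, at 15.2 ± 1.29 TPM in Adamts7 tumors and 19.0 ± 1.80 TPM in vector tumors (SD, n = 5 each, limma adjusted p = 0.186). Xylt2 and B4galt7 were singled out after their values were seen. Of 15 tested genes of chondroitin and dermatan sulfate synthesis 0 were called by limma, with a median of -0.33 (-0.07 without vector tumors 3 and 5). Csgalnact1, which starts chondroitin chains, had 4.10, 2.49, 2.86, 1.55 and 0.870 TPM in Adamts7 tumors, against 2.65, 4.71, 27.5, 3.67 and 23.9 TPM in vector tumors. Vector tumors 3 and 5 stood far above the rest, and its log2 fold change of -1.54 (SE 0.60) was -0.53 (SE 0.33) without them. The authors' deposited table called Csgalnact1 lower (adjusted p of 0.0109). Csgalnact2 was at -0.56 (SE 0.24) on the log2 scale, and at -0.18 (SE 0.16) without those tumors. Of 5 tested genes of keratan sulfate synthesis 0 were called by limma. Their median was -0.29, and 0.09 without vector tumors 3 and 5, with B4galt4 at -0.86 (SE 0.33), or -0.47 (SE 0.31) without them, and B4galt1 at -0.40 (SE 0.15).

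Proteases that cut versican gave 0 calls by limma as well. Adamts1 had 249, 294, 279, 187 and 360.1 TPM in Adamts7 tumors 1 to 5, against 489.5, 386, 1177, 734 and 542 TPM in vector tumors 1 to 5, and the groups did not overlap. Its log2 fold change of -1.20 (SE 0.28) was not called by limma (adjusted p = 0.0953) and was called in the authors' deposited table (adjusted p of 0.00813). Adamts5 was at 3.54 to 5.76 TPM in Adamts7 tumors and 5.97 to 45.2 TPM in vector tumors, with a log2 fold change of -1.46 (SE 0.50, limma adjusted p = 0.167) that was -0.57 (SE 0.20) without vector tumors 3 and 5. In the authors' deposited table Adamts5 was called lower (adjusted p of 0.00664). Of 6 tested genes of this list 0 were called, with a median of -0.17. The groups did not overlap in 2 of the 6, Adamts1 and Adamts5, where 4.89% of all genes tested did not overlap (3.78% with the Adamts7 tumors lower). A list of propeptide proteases and enhancers of procollagen cleavage held 3 tested genes, Bmp1, Pcolce and Pcolce2, and 0 were called by limma. Their median of -0.17 was 0.32 without vector tumors 3 and 5. Pcolce, an enhancer of procollagen cleavage, was at 739 ± 91.2 TPM in Adamts7 tumors and 529 ± 65.0 TPM in vector tumors (SD, n = 5 each; log2 fold change 0.48, SE 0.13, limma adjusted p = 0.116), and it was called higher in the authors' deposited table (adjusted p of 0.00263).

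Partners of the family on the cell surface and in the matrix had 0 calls by limma in each list, with all tumors and without vector tumors 3 and 5. Among genes with an adjusted p in the authors' deposited table, 1 of 18 receptor genes and 2 of 12 genes of hyaluronan were called. So was 1 of 13 genes of collagens and fibril assembly, against 0 of 5 versican-binding matrix genes and 0 of 9 genes of TGF-beta. The glypican gene Gpc3 and the granule proteoglycan gene Srgn, 2 of 11 cell-surface proteoglycan genes, were called there too. All of these calls were lower in Adamts7 tumors, where 7.96% of all genes with such a value were called and 5.48% were called lower. For 17 tested receptors the median log2 fold change was -0.29 (-0.03 without vector tumors 3 and 5). Selp, the adhesion molecule P-selectin, was at -0.91 (SE 0.29), or -0.55 (SE 0.23) without those tumors, and was the receptor called in the authors' deposited table (adjusted p of 0.0103). Tlr2, through which versican and biglycan signal to macrophages, was at 4.45 to 15.5 TPM in Adamts7 tumors, against 36.4 and 46.0 TPM in vector tumors 3 and 5 and 9.12 to 11.9 TPM in the other vector tumors. The Tlr2 log2 fold change of -1.08 (SE 0.47) was -0.35 (SE 0.34) without vector tumors 3 and 5.

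For 9 tested genes of hyaluronan the median was 0.06 (0.12 without vector tumors 3 and 5). Hyal1, a hyaluronidase, was at 52.4 to 85.8 TPM in Adamts7 tumors, against 9.32 and 15.5 TPM in vector tumors 3 and 5 and 48.0 to 62.4 TPM in the other vector tumors. Its log2 fold change of 1.17 (SE 0.49) was 0.31 (SE 0.17) without vector tumors 3 and 5, and that of Cd44, the hyaluronan receptor, was 0.56 (SE 0.24) with all tumors and 0.15 (SE 0.11) without them. The authors' deposited table called the synthase gene Has2 (adjusted p of 0.0279) and Stab2 (0.0192), which was below 1 TPM in every tumor. For 10 tested genes of cell-surface proteoglycans, with the granule proteoglycan gene Srgn counted among them, the median was -0.27. The groups did not overlap in 1 of these 10, where 4.89% of all genes tested did not overlap. That gene was Gpc3, a glypican, at 2.58 to 8.22 TPM in Adamts7 tumors and 9.81 to 12.3 TPM in vector tumors. Its log2 fold change of -1.04 (SE 0.26, limma adjusted p = 0.108) was -1.05 (SE 0.33) without vector tumors 3 and 5. Srgn, the granule proteoglycan serglycin, was at 18.8 to 58.9 TPM in Adamts7 tumors, against 245 and 237 TPM in vector tumors 3 and 5 and 38.8 to 57.5 TPM in the other vector tumors. For Srgn the log2 fold change of -1.40 (SE 0.56) was -0.46 (SE 0.33) without vector tumors 3 and 5. In the authors' deposited table Gpc3 (adjusted p of 0.038) and Srgn (0.0318) were called lower.

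For 13 genes of collagens and fibril assembly, the collagen VI genes and Lox among them, the median was -0.23 with all tumors. It was 0.19 without vector tumors 3 and 5. Col5a2 was at -0.69 (SE 0.22), or -0.45 (SE 0.23) without them, and Col11a1 at -1.49 (SE 0.50), or -0.79 (SE 0.42), and Col11a1 was called lower in the authors' deposited table (adjusted p of 0.00998). For 5 versican-binding matrix genes the median was 0.40, and 0.82 without those tumors. Tnc, the matrix protein tenascin-C, was at 1.18 (SE 0.70), or 1.72 (SE 0.79) without them, and Fbln1 at 0.51 (SE 0.38), or 0.82 (SE 0.43). For 7 genes of TGF-beta the median was -0.29, or -0.13 without them, with Tgfbr2 at -0.29 (SE 0.13), or -0.48 (SE 0.09), and Tgfb2 at -0.50 (SE 0.25), or -0.26 (SE 0.27).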

How the data were processed

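Polyadenylated RNA of 10 tumors was sequenced, and tumors were grouped by their titles. The deposited expression values are log2(TPM + 1) per gene symbol. The submitters' processing notes name RSEM and build mm39 for the deposited files; the sources used here give no annotation. Converted back to TPM, each tumor summed to between 995286 and 998019. A second table of the authors compares the groups, giving a normalized signal averaged over tumors, log2 fold changes, their standard errors, a score dividing one by the other, and p-values, and DESeq2 is named by the authors in their processing notes. Symbols were found for 28805 of its 30040 gene identifiers. The repertoire table was not used here.

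limma 3.58.1 (R 4.3.3) was fitted to log2 values with 1 TPM added, for genes averaging 1 TPM or more. Group was the sole model term, the prior variance followed a trend, and p-values were adjusted by the Benjamini-Hochberg method over all 15276 genes. Adding 1 TPM understates fold changes of low genes such as Ogn. Exact two-sided permutation tests were run in scipy 1.17.1, where 5 against 5 tumors cannot give a p below 0.00794. Depth is unknown from TPM, and p-values set the group difference against the spread between these tumors only. On simulated data with 200 of 15276 genes changed, limma recovered 54% of those altered by 1 log2 unit and 91% of those altered by 2, with 8 false calls. The simulated noise was normal and independent between genes and tumors. It held no tumors that stand apart in many genes at once, so these rates may not hold for the real tumors. Alternatives changed the pseudocount, filter, scaling, variance model, weights, block or tumors included; for the pathway genes, leaving out vector tumors 3 and 5 was chosen after seeing the data.

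The members and lists were chosen with earlier results of these data known. Named genes are the members, Adamts7, genes among the 3 most correlated with each member (predicted genes and receptor segments left out), and in each pathway list the called genes or otherwise at most the 2 of smallest p; marker lists are given as sums with their genes near 0. Promoter windows and gene order come from RefSeq, GRCm38.p6.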

Additional observations from a re-analysis of the deposited data

How the results depend on the processing

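Of the 8 members 0 were called in each of the 21 alternatives run, while calls over all genes, 34 in the reported fit, numbered 10 with no filter, 1219 with tumor weights, 0 with the replicate block, 800 without vector tumors 3 and 5 and the tumor labelled Adamts7 5, and 6 to 655 when 1 tumor was left out, 655 being without that labelled Adamts7 5. The members' median log2 fold change lay between -1.03 and -0.18. Quantile normalization moved the median of all genes to 0.04, against -0.10, and the members' median to -0.60. Dcn, Lum, Fmod, Ogn and Aspn stayed below 0 in every alternative that gave a value; Ogn had none under the filter of 5 TPM. Vcan turned below 0 in 6 fits that left out 1 tumor (range -0.21 to 0.29) and Prelp in 2 (range -0.12 to 0.47). Bgn turned above 0 in 4 such fits (range -0.43 to 0.18), with tumor weights (0.49), without vector tumors 3 and 5 (0.41) and when the tumor labelled Adamts7 5 was dropped too (0.75). The difference in summed TPM of the 7 small leucine-rich members was -153 with all tumors, 132 without vector tumors 3 and 5, 173 when the tumor labelled Adamts7 5 was dropped too, and -235 to -5.95 when 1 tumor was left out; -5.95 was without vector tumor 3. Exact p-values below 0.05 numbered 2 with all tumors and 0 without vector tumors 3 and 5, where 0.0357 is the smallest p possible. No share over all genes is at hand for the permutation test. The median correlation between members was 0.39 without vector tumors 3 and 5. Causes were not tested. Tumor numbers did not pair the groups, since same-numbered deviations correlated between -0.278 and 0.262; with the replicate block 0 members were called and the median stayed at -0.82. Unknown read depth limits the low genes most.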
